A study of Homo sapiens with 10 samples.

Results

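The 10 genes described here encode secreted signalling proteins tied to cellular senescence: the chemokines CXCL1, CXCL2, CXCL3, CXCL5, CXCL8 and CCL2, and the cytokines IL6, LIF, IL1A and IL1B. They were chosen by name, with earlier results of these data known. Each was read on the array by 1 probe set that the platform annotation assigns to it alone. All 10 were measured, among 18279 genes in all. Their levels were compared chiefly between A549 cells made senescent by discodermolide and AD32 cells, which resist it. Discodermolide, first obtained from a marine sponge, stabilises microtubules, and A549 is an established line of human lung adenocarcinoma.

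The 10 arrays held 4 groups. A549 disco (n = 2) was A549 in 32 nM discodermolide and is labelled senescent. AD32 4E-BP1 (n = 1) was kept in 0.01% DMSO, is labelled sensitive and carries the name of 4E-BP1, a repressor of cap-dependent translation. AD32 (n = 3) was grown in 32 nM discodermolide and is labelled resistant, and A549 DMSO (n = 4) received 0.01% DMSO and is labelled sensitive. The sources used here do not say how long A549 cells were in the drug or whether either AD32 line is 1 clone. They call the numbered samples biological replicates without saying how they were grown apart, so p-values measure the spread between these samples. AD32 4E-BP1 and AD32 differ in drug as well as in line, and these differences cannot be told apart.

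Senescent cells stop dividing but often secrete a mixture of cytokines, chemokines and proteases. IL-1 alpha, acting through its receptor on the same or neighbouring cells, activates the transcription factor NF-kappaB, which with C/EBP factors drives IL6 and CXCL8. The CXCL members here attract neutrophils through the receptor CXCR2 and lie together in a gene cluster, CCL2 attracts monocytes through CCR2, and IL-6 and LIF signal through the shared receptor subunit gp130 (IL6ST) to the factor STAT3. NF-kappaB also induces its own inhibitors, among them A20 (TNFAIP3) and I-kappaB alpha (NFKBIA).

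RefSeq promoter sequences (GRCh38.p14) matched 8 of the 10 members, all but LIF and CCL2. The 130 bases before the annotated start of 6 of them are shown because all 5 CXCL members carry the same letters there while their levels differed. Capitals mark GGAATTTCC, the core of an NF-kappaB site, or in IL6 the related GGATTTTCC, both searched on both strands.
CXCL1, chr4:73869263-73869392, plus strand: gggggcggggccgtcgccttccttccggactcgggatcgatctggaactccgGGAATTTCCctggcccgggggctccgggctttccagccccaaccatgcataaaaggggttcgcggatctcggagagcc
CXCL2, chr4:74099196-74099325, minus strand: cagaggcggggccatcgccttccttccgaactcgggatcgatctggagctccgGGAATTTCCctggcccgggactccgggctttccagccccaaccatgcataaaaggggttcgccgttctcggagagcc
CXCL3, chr4:74038690-74038819, minus strand: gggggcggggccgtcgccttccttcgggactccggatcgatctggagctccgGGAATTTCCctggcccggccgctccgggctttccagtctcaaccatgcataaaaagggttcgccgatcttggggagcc
CXCL5, chr4:73998678-73998807, minus strand: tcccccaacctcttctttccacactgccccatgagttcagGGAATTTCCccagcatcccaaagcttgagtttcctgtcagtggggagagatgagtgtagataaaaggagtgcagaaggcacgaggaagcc
CXCL8, chr4:73740439-73740568, plus strand: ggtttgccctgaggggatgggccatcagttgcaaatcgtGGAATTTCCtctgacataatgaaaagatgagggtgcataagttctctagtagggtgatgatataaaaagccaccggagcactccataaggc
IL6, chr7:22727070-22727199, plus strand: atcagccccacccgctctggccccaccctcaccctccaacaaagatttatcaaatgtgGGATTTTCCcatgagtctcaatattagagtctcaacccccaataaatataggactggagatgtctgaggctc

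The match begins 78, 77, 78, 90 and 91 bases before the start in CXCL1, CXCL2, CXCL3, CXCL5 and CXCL8, and 72 bases before it in IL6. GGAATTTCC occurs in 0.461% of the 35116 promoters of 300 bases and GGATTTTCC in 0.336%. Around the match, over 109 bases read without gaps, CXCL1 shares 92.7% of bases with CXCL3 and 76.1% with CXCL2, but 37.6% with CXCL5 and 33% with CXCL8. TGACTCA, an AP-1 site found in 4.95% of promoters and searched on both strands, occurs in those of CXCL8 and IL1A. A match describes the letters and shows no binding. CXCL1, CXCL2 and CXCL3 are also close in transcript sequence, so their probe sets may share signal, which was not tested.

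All levels are log2 signals as deposited. Array lower quartiles lay between 4.77 and 4.94, and a level under them was read only as low. Of 11 markers of lung epithelial cells, KRT8 and KRT18 were high (12.67 to 14.00) and CDH1 lay at 8.46 to 10.40. EPCAM lay at 3.30 to 3.87, below the lower quartile of every array, and NKX2-1 at 4.58 to 5.11, near the quartiles. KRT19, CLDN4, MUC1, SFTPB, SFTPC and NAPSA lay between 5.03 and 6.88. Mean levels of 8 leukocyte markers were 5.32 to 5.46 in A549 disco, 5.24 in AD32 4E-BP1, 5.06 to 5.39 in AD32 and 5.20 to 5.71 in A549 DMSO. Among them PTPRC lay at 2.77 to 3.20, LYZ at 2.95 to 3.76, TYROBP at 6.38 to 7.13 and CD68 at 8.34 to 10.71. CD68 was 9.98 and 10.50 in A549 disco, against 9.41, 8.34 and 8.66 in AD32, without passing (2.71-fold higher, adjusted p = 0.149), and its part in the members' differences was not tested. A549 DMSO replicate 1 and AD32 replicate 3 stood apart from their groups in 8 proliferation genes. Means of these genes were 7.13 and 7.40 in A549 disco, 10.39 in AD32 4E-BP1, 5.37, 6.63 and 10.15 in AD32, and 7.31, 10.46, 10.51 and 10.48 in A549 DMSO, replicates in order. A549 DMSO replicates 3 and 4 were nearly identical, with 1 gene apart by over 1 on the log2 scale against 95 to 2126 genes in the other DMSO pairs. In bulk RNA, fewer cells of a kind and less RNA per cell cannot be told apart.

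In the same concentration of drug, senescent A549 cells and resistant AD32 cells differed in some members of this group, in both directions. A549 disco had more IL6 and LIF, AD32 had more CXCL1, and their CXCL8 levels overlapped. IL6 was nonetheless low, below the lower quartile on 9 of 10 arrays. By limma, adjusted for all genes by the Benjamini-Hochberg method, 3 of 10 members were called in A549 disco against AD32 (IL6 and LIF higher, CXCL1 lower), compared with 3.74% of all genes (2.46% higher and 1.28% lower). The median log2 difference of the members was -0.13, and that of all genes -0.01. All arrays of the 2 groups stood apart for IL6 and LIF (higher) and for CXCL1, CXCL2, CXCL3 and IL1A (lower), which compares with 18% and 14.4% of all genes.

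These 3 calls rest on few arrays, and calls over all genes changed with the arrays fitted. Of all 18279 genes, 683 were called in the main fit and 353 with only the compared groups. Without AD32 replicate 1, 2 or 3 they were 412, 420 and 1082. With only the compared groups fitted 0 members were called (adjusted p = 0.0599 for CXCL1). Without A549 disco replicate 1 or 2 the count was also 0, without AD32 replicate 1 or 2 it was 1 (CXCL1), and without AD32 replicate 3 it was 5, with CXCL2, IL1A and CCL2 added and IL6 lost (adjusted p = 0.0771).

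**Figure D1:**
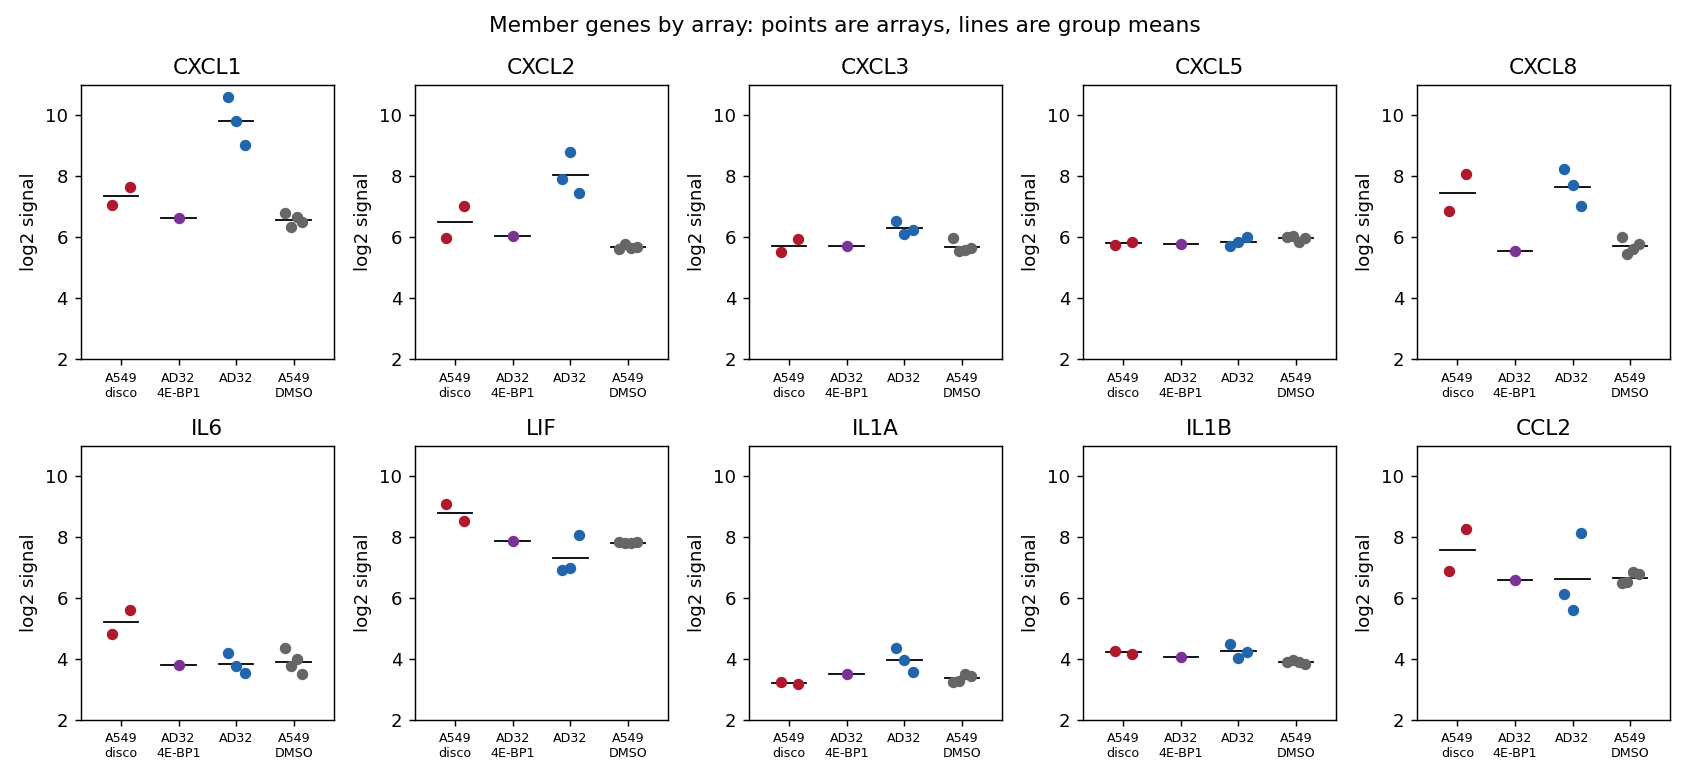
Log2 signal of the 10 members (vertical axis) on each array, by group from left to right: A549 disco, AD32 4E-BP1, AD32 and A549 DMSO. Points are arrays and lines are group means. CXCL1 and CXCL2 are highest on the 3 AD32 arrays, and IL6 and LIF on the 2 A549 disco arrays.

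Among the neutrophil chemokines, CXCL1 separated AD32 from every other group. Its level was 7.05 and 7.65 in A549 disco, 6.62 in AD32 4E-BP1, 10.61, 9.83 and 9.03 in AD32, and 6.81, 6.33, 6.68 and 6.51 in A549 DMSO. All 3 AD32 arrays lay above all others, and the AD32 4E-BP1 array lay within the A549 DMSO range. Both A549 disco arrays were also above every A549 DMSO array, with a log2 difference of 0.77 that did not pass (95% interval -0.08 to 1.62, adjusted p = 0.496). Within AD32 the lowest CXCL1, CXCL2, CXCL8, IL6 and IL1A and the highest LIF, CCL2 and CXCL5 were on replicate 3. That array had the highest proliferation mean (10.15 against 5.37 and 6.63), and the part of that in the results was not tested. CXCL1 was 5.55-fold lower in A549 disco than in AD32 (log2 difference -2.47, SE 0.40, adjusted p = 0.011), and this call was lost without A549 disco replicate 1 (adjusted p = 0.131) or 2 (adjusted p = 0.0643). In AD32 it was 9.47-fold higher than in A549 DMSO (log2 difference 3.24, SE 0.33, adjusted p = 0.000829), a call kept under all 15 alternatives (adjusted p from 0.000119 to 0.00903). On the AD32 4E-BP1 array it was 9.20-fold lower than in AD32 (log2 difference -3.20, SE 0.50, adjusted p = 0.0233), and this call was lost without AD32 replicate 2 (adjusted p = 0.07) and with the compared groups alone (adjusted p = 0.341).

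CXCL2, a close paralogue, had the same order of groups. It stood at 5.97 and 7.04 in A549 disco, 6.04 in AD32 4E-BP1, 7.90, 8.78 and 7.47 in AD32, and 5.60, 5.76, 5.64 and 5.69 in A549 DMSO. AD32 was again above all other arrays, whereas the A549 disco arrays lay apart from each other by more than the whole A549 DMSO range. Both were above every A549 DMSO array, with a log2 difference of 0.83 that did not pass (95% interval -0.01 to 1.66, adjusted p = 0.454). CXCL2 rose 5.18-fold in AD32 against A549 DMSO (log2 difference 2.37, SE 0.33, adjusted p = 0.00407). Its log2 difference of A549 disco from AD32 was -1.55 (95% interval -2.42 to -0.67, adjusted p = 0.0675), which passed without AD32 replicate 3 (adjusted p = 0.024).

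CXCL8 encodes interleukin-8. Levels were 6.86 and 8.07 in A549 disco, 5.55 in AD32 4E-BP1, 8.26, 7.72 and 7.02 in AD32, and 6.01, 5.46, 5.62 and 5.78 in A549 DMSO. Every A549 disco and AD32 array was above every A549 DMSO array, and the 2 drug-exposed groups overlapped. CXCL8 rose 3.85-fold in AD32 against A549 DMSO (log2 difference 1.95, SE 0.34, adjusted p = 0.012), though not without AD32 replicate 2 (adjusted p = 0.0543). In A549 disco it was 3.35-fold above A549 DMSO without passing (log2 difference 1.74, 95% interval 0.87 to 2.62, adjusted p = 0.115). Between A549 disco and AD32 the log2 difference was -0.20, with a 95% interval of -1.12 to 0.72, so a difference of that width in either direction could be missed.

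CXCL3 and CXCL5, which act on the same receptor, passed no test in any of the 4 comparisons over all arrays. CXCL3 lay at 5.51 and 5.93 in A549 disco, 5.71 in AD32 4E-BP1, 6.53, 6.10 and 6.25 in AD32, and 5.98, 5.55, 5.58 and 5.66 in A549 DMSO. The AD32 arrays were the highest, 1.52-fold above A549 DMSO on average (log2 difference 0.60, SE 0.17, adjusted p = 0.0771), and this passed without A549 DMSO replicate 1 (adjusted p = 0.0269). CXCL5 kept to 5.72 to 6.03 over all 10 arrays, with a 95% interval of -0.38 to 0.27 for its log2 difference of A549 disco from AD32. CXCL5, which carries the same GGAATTTCC before its start, kept to a narrow range while CXCL1 spanned 6.33 to 10.61.

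**Figure D2:**
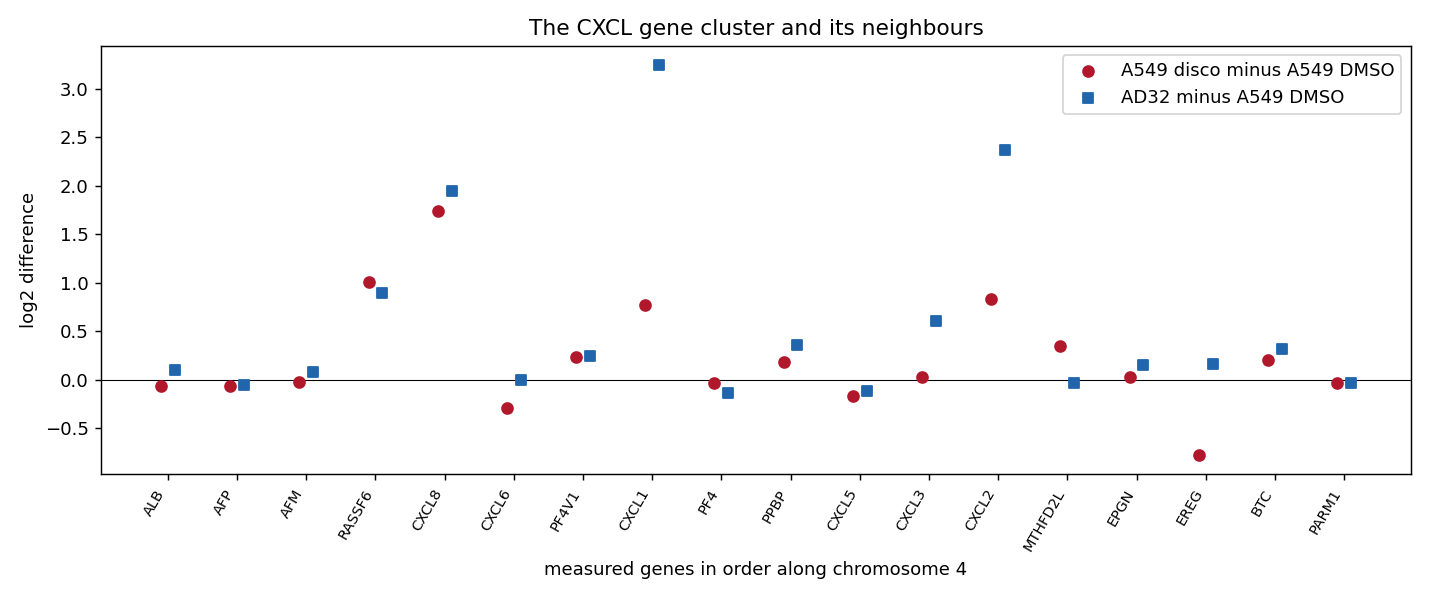
Log2 difference (vertical axis) of A549 disco from A549 DMSO (circles) and of AD32 from A549 DMSO (squares) for 18 measured genes in their order along chromosome 4. In AD32, CXCL8, CXCL1 and CXCL2 stand above the genes between and beside them. The 13 genes that are no members, several of them low in signal, run from -0.14 to 0.89.

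The 5 CXCL members lie on chromosome 4 among other chemokine and growth factor genes. From ALB to PARM1 the RefSeq order holds 19 protein-coding genes, of which 18 were measured alone. None of the 13 that are no members was called by limma in AD32 against A549 DMSO, with log2 differences from -0.14 to 0.89. RASSF6, next to CXCL8 and at a mean level of 6.84, had the highest (0.89, and 1.01 in A549 disco against A549 DMSO, neither called). ALB, AFP, AFM, EPGN, PARM1, CXCL6, PPBP and PF4 averaged 2.84 to 4.74, under every array lower quartile, so a change there could be missed. Of these 13, 2 had an unadjusted p under 0.05, as had 3604 of all 18279 genes, and 5.72% of all genes were called. The chemokine gene CXCL6 differed by -0.0037 (adjusted p = 0.996), PF4 by -0.14 (adjusted p = 0.585) and PPBP by 0.35 (adjusted p = 0.152), and all 3 stand between CXCL8 and CXCL5. EREG, a growth factor gene on the far side of CXCL2, differed by 0.16 (adjusted p = 0.897).

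IL6 and LIF, the cytokines that signal through gp130, were highest in senescent A549. IL6 was 4.83 and 5.59 in A549 disco, 3.79 in AD32 4E-BP1, 4.20, 3.77 and 3.53 in AD32, and 4.37, 3.77, 3.98 and 3.51 in A549 DMSO. It lay below the lower quartile on 9 of 10 arrays, the exception being A549 disco replicate 2, so its fold of signal need not equal a ratio of transcripts. LIF was 9.09 and 8.51 in A549 disco, 7.85 in AD32 4E-BP1, 6.91, 6.97 and 8.08 in AD32, and 7.83, 7.81, 7.80 and 7.84 in A549 DMSO. Both A549 disco arrays were above all others in either gene. The AD32 arrays were uneven for LIF, with replicates 1 and 2 below every A549 DMSO array and replicate 3 above them. IL6 was 2.59-fold higher in A549 disco than in AD32 (log2 difference 1.37, SE 0.31, adjusted p = 0.0485) and LIF 2.79-fold higher (log2 difference 1.48, SE 0.33, adjusted p = 0.045).

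Against A549 DMSO, IL6 in A549 disco had a log2 difference of 1.30 (95% interval 0.63 to 1.97, adjusted p = 0.123) and LIF one of 0.98 (95% interval 0.27 to 1.69, adjusted p = 0.288). AD32 did not differ detectably from A549 DMSO in IL6 (log2 difference -0.07, 95% interval -0.67 to 0.52) or LIF (-0.50, 95% interval -1.13 to 0.13). LIF was called lower there without AD32 replicate 3 (log2 difference -0.88, adjusted p = 0.0149). The call of IL6 in A549 disco against AD32 was lost under 8 of 13 alternatives, among them the removal of any 1 array of either group (adjusted p from 0.0598 to 0.406), with log2 differences from 0.99 to 1.75. That of LIF was lost under 8 of 14, among them the removal of either A549 disco array or of AD32 replicate 1 or 2 (adjusted p from 0.123 to 0.33), with log2 differences from 1.19 to 1.86.

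IL1A and IL1B, which encode the interleukin-1 cytokines, were below the lower quartile on all 10 arrays. IL1A was 3.25 and 3.16 in A549 disco, 3.52 in AD32 4E-BP1, 4.34, 3.95 and 3.57 in AD32, and 3.24, 3.28, 3.50 and 3.44 in A549 DMSO. AD32 held the 3 highest values. The signal of A549 disco was 1.68-fold lower than that of AD32 (log2 difference -0.75, SE 0.22, adjusted p = 0.106), and that of AD32 1.51-fold higher than that of A549 DMSO (adjusted p = 0.1). Without AD32 replicate 3 both passed (adjusted p = 0.0226 and 0.0187). IL1B ran from 3.83 to 4.49 over all arrays, with a log2 difference of -0.03 between A549 disco and AD32 (95% interval -0.39 to 0.32).

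CCL2, the monocyte chemokine, varied mainly within groups. It stood at 6.88 and 8.25 in A549 disco, 6.60 in AD32 4E-BP1, 6.12, 5.62 and 8.14 in AD32, and 6.48, 6.52, 6.86 and 6.77 in A549 DMSO. AD32 replicate 3 was near A549 disco replicate 2, while the other AD32 arrays were the lowest of all. Its log2 difference of A549 disco from AD32 was 0.94 with a wide 95% interval of -0.55 to 2.44 (adjusted p = 0.617). Without AD32 replicate 3 it was 1.70 (adjusted p = 0.0446).

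**Figure D3:**
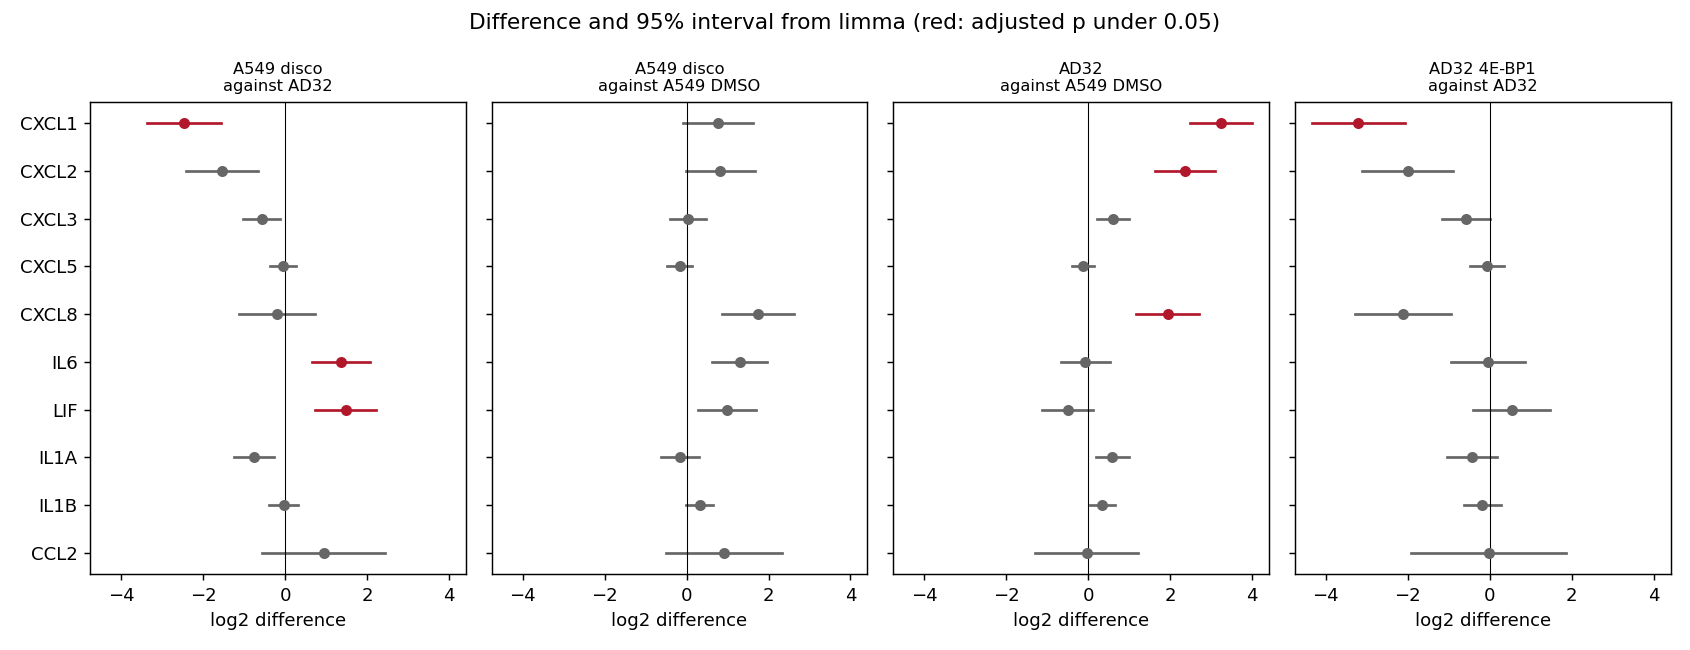
Log2 difference (horizontal axis) and 95% interval of each member in the 4 comparisons, from limma, with red for adjusted p under 0.05. CXCL1 is called in 3 comparisons, IL6 and LIF only in A549 disco against AD32, and no member in A549 disco against A549 DMSO.

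Set against A549 cells in DMSO, the members lay mostly higher in senescent A549, but none passed. In A549 disco against A549 DMSO, 8 of 10 had a log2 difference above 0, as had 9872 of all 18279 genes. CXCL3, at 0.03, was among the 8 and changed sign in 6 of 15 alternatives. The median of the members was 0.80 against 0.02 over all genes. By limma 0 were called, where 0.372% of all genes were called (0.35% higher and 0.0219% lower). An unadjusted p under 0.05 was found for 3 members (CXCL8, IL6 and LIF) and for 2033 of all 18279 genes. Both A549 disco arrays lay above all A549 DMSO arrays in 7 members and below them in 1, compared with 15.2% and 7.71% of all genes. Without A549 DMSO replicate 1, CXCL8 and IL6 were called (log2 differences 1.84 and 1.45, adjusted p = 0.0482 and 0.0329). Calls over all 18279 genes then rose from 68 to 643. That DMSO array had a proliferation mean near the treated arrays (7.31 against 7.13 and 7.40), and its part in these calls was not tested.

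In AD32 against A549 DMSO, 3 of 10 members were called, CXCL1, CXCL2 and CXCL8, all higher, where 5.72% of all genes were called, 3.52% higher and 2.19% lower. The members' median was 0.47, and that of all genes 0.01. Arrays did not overlap, on the high side, for 6 members (8.9% of all genes), and for 0 on the low side (6.48% of all genes). Without AD32 replicate 3 the count was 5, with IL1A higher and LIF lower added. Calls over all 18279 genes then rose from 1045 to 1965. This comparison shares its DMSO arrays with that of A549 disco and A549 DMSO, and its AD32 arrays with the other two, so a likeness between them is no separate result.

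AD32 4E-BP1 lay lower than AD32 in 9 of 10 members, with CXCL1 the 1 called, where 0.919% of all genes were called, 0.339% higher and 0.58% lower. CXCL8 differed by -2.12 (95% interval -3.28 to -0.95) and CXCL2 by -2.01 (95% interval -3.12 to -0.89), both with adjusted p = 0.15. Of all 18279 genes, 9828 were also below 0. Among the 9 lower members, CXCL5, IL6 and CCL2 differed by only -0.07, -0.04 and -0.02, and each changed sign under an alternative. The lone array was outside the AD32 range, on the low side, for 5 members, where 27.7% of all genes were, and for 0 on the high side, where 23.9% were. Without AD32 replicate 3 the count rose to 3, CXCL1, CXCL2 and CXCL8, and without AD32 replicate 2 it was 0. Calls over all genes also rose without AD32 replicate 3. The proliferation mean of the AD32 4E-BP1 array (10.39) was near that of AD32 replicate 3 (10.15). It lay away from replicates 1 and 2 (5.37 and 6.63), and its part in these differences was not tested.

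The NF-kappaB list of subunits, upstream signalling and feedback genes had 2 of 24 called higher and 1 lower in A549 disco against AD32, and 3 of 24 higher and 0 lower in AD32 against A549 DMSO. Over all genes, 2.46% were called higher and 1.28% lower in the first comparison, and 3.52% and 2.19% in the second. TNFAIP3, the feedback inhibitor A20, was 6.44 and 6.85 in A549 disco, 5.64 in AD32 4E-BP1, 7.38, 7.70 and 7.56 in AD32, and 5.43, 5.79, 5.43 and 5.46 in A549 DMSO. The 3 groups with replicates did not overlap, with AD32 above A549 disco and A549 disco above A549 DMSO. TNFAIP3 was 1.87-fold lower in A549 disco than in AD32 (log2 difference -0.90, adjusted p = 0.0339), 2.17-fold higher in A549 disco than in A549 DMSO (adjusted p = 0.0431), 4.06-fold higher in AD32 than in A549 DMSO (adjusted p = 0.000138) and 3.76-fold lower on the AD32 4E-BP1 array than in AD32 (adjusted p = 0.00682). The upstream kinase genes IKBKB (1.73-fold, adjusted p = 0.0345) and MAP3K8 (1.65-fold, adjusted p = 0.0455) were higher in A549 disco than in AD32. NFKBIA, encoding I-kappaB alpha, rose 2.08-fold in AD32 against A549 DMSO (adjusted p = 0.0184), and its log2 difference of A549 disco from AD32 was -0.42 (95% interval -0.98 to 0.13). NFKBIZ, a nuclear I-kappaB family gene singled out after its values were seen, rose 3.24-fold in AD32 against A549 DMSO (adjusted p = 0.0331). Without AD32 replicate 2 or A549 DMSO replicate 3 or 4, NFKBIA (adjusted p from 0.0545 to 0.0797) and NFKBIZ (0.0978 to 0.134) were not called, nor was NFKBIZ without AD32 replicate 1 (0.127) or A549 DMSO replicate 2 (0.0622). TNFAIP3 lost its call between A549 disco and AD32 without any 1 of 4 arrays, A549 disco 1 or 2 or AD32 1 or 2 (adjusted p from 0.0545 to 0.291), and its call between A549 disco and A549 DMSO without any of the arrays but A549 DMSO replicate 1 (0.0648 to 0.425). IKBKB and MAP3K8 were not called without any single array of either group, IKBKB without AD32 replicate 3 excepted. Over all alternatives in A549 disco against AD32, the call was lost in 6 of 14 for TNFAIP3, 9 of 14 for IKBKB and 11 of 14 for MAP3K8, also with only the compared groups fitted (adjusted p = 0.0914, 0.0921 and 0.121). The call of TNFAIP3 on the lone AD32 4E-BP1 array was lost with only the compared groups (adjusted p = 0.15).

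In the C/EBP and STAT3 list 1 of 13 genes was called higher and 0 lower in A549 disco against AD32, namely CEBPD, a C/EBP factor gene (1.64-fold, adjusted p = 0.033), which was not called without either A549 disco array or AD32 replicate 2 (adjusted p from 0.0825 to 0.246). Its call was lost in 8 of 14 alternatives, among them only the compared groups (adjusted p = 0.116), further quantile normalization (0.076), a trended and robust prior (0.0749), the replicate block (0.0762) and averaged A549 DMSO replicates 3 and 4 (0.0673). Over all genes, 2.46% were called higher and 1.28% lower in A549 disco against AD32. STAT3, named after its values were seen, was 11.54 and 11.58 in A549 disco, 10.70 in AD32 4E-BP1, 11.07, 10.97 and 10.94 in AD32, and 10.68, 10.60, 10.29 and 10.33 in A549 DMSO. All 3 AD32 arrays lay above every A549 DMSO array in STAT3, a comparison in which IL6 and LIF did not differ detectably. In A549 disco, IL6 and LIF lay higher than in A549 DMSO without passing, and a link to STAT3 was not tested. STAT3 rose 2.12-fold in A549 disco against A549 DMSO (adjusted p = 0.0265). This rise was called without A549 DMSO replicate 1 but not without any other single A549 DMSO or A549 disco array (adjusted p from 0.0648 to 0.317).

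**Figure D4:**
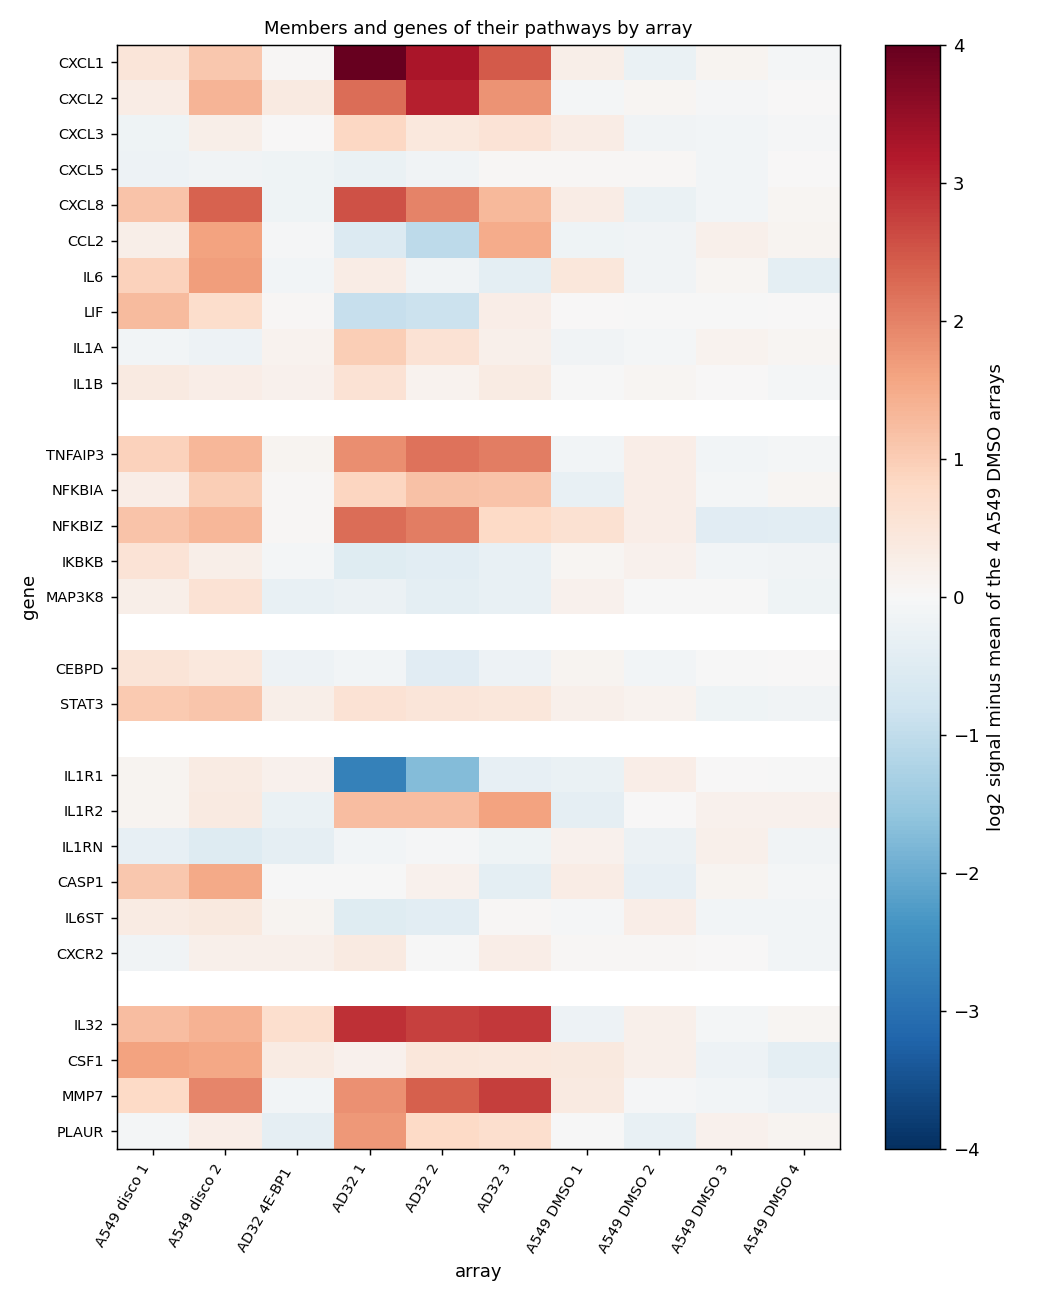
Log2 signal minus the mean of the 4 A549 DMSO arrays (colour scale, log2 units) for the members and genes of their pathways (rows) on each array (columns), in the order A549 disco, AD32 4E-BP1, AD32 and A549 DMSO. TNFAIP3 and IL32 are high on all 3 AD32 arrays and IL1R1 is low on AD32 replicates 1 and 2.

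Receptors of the members had 0 of 11 called higher (2.46% of all genes) and 1 lower (1.28% of all genes) in A549 disco against AD32. That was IL1R2, the interleukin-1 decoy receptor gene, at 5.84 and 6.12 in A549 disco, 5.47 in AD32 4E-BP1, 6.98, 6.97 and 7.34 in AD32, and 5.38, 5.76, 5.93 and 5.93 in A549 DMSO. IL1R2 was highest on the 3 AD32 arrays. It was 2.17-fold lower in A549 disco than in AD32 (adjusted p = 0.0223) and 2.55-fold higher in AD32 than in A549 DMSO (adjusted p = 0.00335). The first of these calls was lost without A549 disco replicate 1 or 2 or AD32 replicate 1 (adjusted p from 0.0513 to 0.207). The signalling receptor gene IL1R1 was uneven in AD32, at 5.27, 6.25 and 7.65, against 8.08 and 8.30 in A549 disco. Its log2 difference of A549 disco from AD32 was 1.81 (SE 0.54, adjusted p = 0.12), and it passed without AD32 replicate 3 (adjusted p = 0.00326). IL6ST, encoding gp130, was 10.15 and 10.22 in A549 disco and 9.35, 9.39 and 9.88 in AD32 (adjusted p = 0.13), and it too passed without AD32 replicate 3 (adjusted p = 0.0328). CXCR2, the receptor of the CXCL members, lay below the lower quartile in every group (3.36 to 3.84).

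The interleukin-1 processing list had 1 of 16 called higher in A549 disco against AD32, where 2.46% of all genes were called higher. CASP1, which encodes the protease that matures interleukin-1 beta, was 4.51 and 4.96 in A549 disco, 3.44 in AD32 4E-BP1, 3.42, 3.60 and 3.04 in AD32, and 3.74, 3.10, 3.56 and 3.36 in A549 DMSO (2.61-fold over AD32, adjusted p = 0.0164). Only A549 disco replicate 2 exceeded the lower quartile, and the call was lost without A549 disco replicate 1 (adjusted p = 0.0635) or 2 (adjusted p = 0.187). IL1RN, encoding the interleukin-1 receptor antagonist, had a log2 difference of -0.32 (95% interval -0.71 to 0.06).

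Other secreted factors had 1 of 20 called higher (2.46% of all genes) and 1 lower (1.28% of all genes) in A549 disco against AD32. CSF1, a macrophage growth factor gene, was 9.19 and 9.11 in A549 disco, 7.90 in AD32 4E-BP1, 7.74, 8.04 and 7.99 in AD32, and 7.95, 7.77, 7.38 and 7.20 in A549 DMSO. It was 2.34-fold higher in A549 disco than in AD32 (adjusted p = 0.0213) and 2.98-fold higher than in A549 DMSO (adjusted p = 0.0251), the first of which was also lost without AD32 replicate 1 (adjusted p = 0.0709). IL32, a cytokine gene, was 7.79 and 7.95 in A549 disco, 7.21 in AD32 4E-BP1, 9.46, 9.27 and 9.39 in AD32, and 6.36, 6.76, 6.46 and 6.61 in A549 DMSO. These groups did not overlap, and IL32 was 2.83-fold lower in A549 disco than in AD32 (adjusted p = 0.00137), 7.09-fold higher in AD32 than in A549 DMSO (adjusted p = 8.88e-06), 2.50-fold higher in A549 disco than in A549 DMSO (adjusted p = 0.0117) and 4.49-fold lower on the AD32 4E-BP1 array than in AD32 (adjusted p = 0.0014). Of the 9 other genes called between A549 disco and AD32 in the lists given here, 8 lost the call without A549 disco replicate 1 (adjusted p from 0.0635 to 0.356), the same 8 without replicate 2 (0.0803 to 0.39), and IL32 kept it in all 14 alternatives. Against A549 DMSO, the calls of CSF1 and IL32 in A549 disco were lost without either A549 disco array or without A549 DMSO replicate 3 or 4 (adjusted p from 0.0556 to 0.269), and that of CSF1 also without A549 DMSO replicate 2 (0.0648). The call of IL32 on the lone AD32 4E-BP1 array was lost with only the compared groups fitted (adjusted p = 0.107).

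Further lists held few calls between A549 disco and AD32. By limma 0 of 20 other chemokine genes were called, also with 0 at an unadjusted p under 0.05. The same test called 0 of 19 secreted proteases and their partners (7 at an unadjusted p under 0.05), 0 of 11 regulators of cytokine mRNA decay (1) and 0 of 8 cytosolic DNA sensing genes (1). Over all genes, 3.74% were called in this comparison and 2829 of 18279 had an unadjusted p under 0.05. In AD32 against A549 DMSO, the protease gene MMP7 rose 5.04-fold (adjusted p = 0.00312) and PLAUR, the urokinase receptor gene, 2.10-fold (adjusted p = 0.0429). These are 2 of 19, where 3.52% of all genes were called higher. MMP7 kept its call in all 14 alternatives. Among 10 fibroblast and endothelial markers COL3A1, a collagen gene, was the 1 called higher in A549 disco than in AD32 (3.35-fold, adjusted p = 0.0471), where 2.46% of all genes were called higher. COL3A1 was 8.48 and 7.45 in A549 disco, 8.003 in AD32 4E-BP1, 6.52, 6.001 and 6.13 in AD32, and 7.62, 8.10, 8.68 and 8.78 in A549 DMSO. AD32 was thus the low group, 4.23-fold below A549 DMSO (adjusted p = 0.00789, a call kept in all 15 alternatives), and A549 disco overlapped A549 DMSO (log2 difference -0.34, adjusted p = 0.837). Among 11 epithelial markers CDH1, encoding E-cadherin, was the 1 called higher in AD32 than in A549 DMSO (2.16-fold, adjusted p = 0.0357), where 3.52% of all genes were called higher. Means of the fibroblast and endothelial markers were 5.39 to 5.47 in A549 disco, 5.23 in AD32 4E-BP1, 5.01 to 5.24 in AD32 and 5.25 to 5.48 in A549 DMSO, and their part in the members' levels was not tested. NAAA, from the wider chromosome 4 list, was 1.76-fold lower in AD32 than in A549 DMSO (adjusted p = 0.0483). PLAUR, CDH1 and NAAA were not called without any 1 of AD32 replicates 1 and 2 or A549 DMSO replicates 2, 3 and 4 (adjusted p from 0.0707 to 0.172), and COL3A1 was not called between A549 disco and AD32 without any 1 of their arrays (0.0685 to 0.356).

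Over the 10 arrays, with each gene centred on its own mean, the profile most like CXCL1 was that of DSE, with a root mean square difference of 0.27 where CXCL1 itself deviated by 1.47. DSE averaged 6.36 in A549 disco, 5.76 in AD32 4E-BP1, 9.19 in AD32 and 5.86 in A549 DMSO. MSLN, LAMB3, PRICKLE1 and ENC1 followed (0.33 to 0.40). For IL6, which deviated by 0.62, the nearest were CHI3L2 (0.19), PYHIN1, CASP1, AIG1 and IRF9 (0.20 to 0.24). CHI3L2 averaged 5.72 in A549 disco, 4.37 in AD32 4E-BP1, 4.23 in AD32 and 4.40 in A549 DMSO. These are descriptions of 10 arrays that share group structure.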

How the data were processed

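Total RNA of cultured human cells was measured on Affymetrix arrays, 1 per sample. The deposited log2 values come from Expression Console, according to the notes on processing that the authors gave GEO, and their scale was read from their range. For its version, summarisation and normalization the entry is: not given in the sources used here. Of 24308 probe sets, 19262 name 1 gene, 1720 several and 3326 none. Each gene's probe set with the highest mean was used (18279 genes).

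The 4 groups were fitted together with limma 3.58.1 in R 4.3.3 (lmFit and eBayes, 6 residual degrees of freedom), two-sided, with p-values adjusted by Benjamini-Hochberg over all genes and called under 0.05. Intervals cover 95%. AD32 4E-BP1, a lone array, was assumed to vary like the other groups, and the number of arrays limits precision. The fit was tested on simulated data of independent normal noise, with each gene's spread the same in all groups. Such data hold no outlying or nearly identical arrays, so that test does not bear on them. The members and gene lists were chosen with earlier results of these data known. Named genes were all members, up to 4 called genes of each list in A549 disco against AD32 (else up to 2 in another comparison), fixed pathway genes, and the 5 genes most like CXCL1 and IL6. Motifs were searched with Python 3.11.15.

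Same-numbered samples of AD32 and A549 DMSO did not all deviate together (correlations across genes of 0.68, -0.26 and 0.41), so the numbers were not taken as pairs. Alternatives changed the scaling, filter, prior, groups fitted, probe set rule and arrays, and 1 kind, which takes an array outside the comparison out of the pooled spread, was chosen after seeing the data.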

Additional observations from a re-analysis of the deposited data

How the results depend on the processing

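With the replicate block, 4 genes were called in A549 disco against A549 DMSO (68 without it) and 650 in AD32 against A549 DMSO (1045 without it). In A549 disco against AD32 the block ended the calls of IL6 and LIF (adjusted p = 0.104 and 0.0501) and added CXCL2 (adjusted p = 0.0389), although the numbers share no stated origin, and AD32 4E-BP1 carries none. Fitting only the compared groups gave 353 genes and 0 members in A549 disco against AD32 (683 and 3 in the fit of all groups), 106 genes in A549 disco against A549 DMSO, and 13 genes and 0 members in AD32 4E-BP1 against AD32 (168 and 1 in the fit of all groups). Averaging A549 DMSO replicates 3 and 4 gave 1 member in A549 disco against AD32, 15 genes in A549 disco against A549 DMSO, 525 in AD32 against A549 DMSO, and 99 genes and 0 members in AD32 4E-BP1 against AD32. With the dimmest genes left out, by mean, 36 genes were called in A549 disco against A549 DMSO and 107 in AD32 4E-BP1 against AD32, and IL6, IL1A and IL1B had no value. With A549 DMSO replicate 1 out of the pooled spread, 1215 genes were called in A549 disco against AD32 and 262 in AD32 4E-BP1 against AD32. With AD32 replicate 3 out of it, 134 were called in A549 disco against A549 DMSO.

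Leaving out 1 array at a time gave 132 to 1082 genes and 0 to 5 members in A549 disco against AD32, 8 to 643 genes and 0 to 2 members in A549 disco against A549 DMSO, 512 to 2164 genes and 2 to 5 members in AD32 against A549 DMSO, and 113 to 656 genes and 0 to 3 members in AD32 4E-BP1 against AD32. Some log2 differences that were not called changed sign. In A549 disco against AD32 the ranges were -0.12 to 0.025 for CXCL5, -0.81 to 0.40 for CXCL8, -0.14 to 0.084 for IL1B and -0.33 to 0.012 for CXCR2. CXCL3 in A549 disco against A549 DMSO ran from -0.18 to 0.24 and was -0.023 with further quantile normalization, -0.033 with median centring and -0.022 with the block. In AD32 against A549 DMSO, IL6 ran from -0.26 to 0.082 and CCL2 from -0.79 to 0.47, and CCL2 was 0.0017 with the block and 0.016 with the averaged replicates. In AD32 4E-BP1 against AD32, IL6 ran from -0.20 to 0.14, CCL2 from -0.53 to 0.73 and CXCL5 from -0.13 to 0.00998, with IL6 at 0.028 and CCL2 at 0.021 after further quantile normalization. Fewer samples or genes enter several of these fits, and otherwise the cause was not tested. Signals below the array lower quartile limit what can be said of IL6, IL1A and IL1B.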
